A study of Helianthus annuus with 6 samples.

Results

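Petioles of 2 inbred lines of cultivated sunflower were profiled by RNA sequencing, and 200 genes were examined whose level in replicate 1 of line 19G lay furthest above the other libraries of that line. They were chosen by their own measured FPKM values (fragment counts corrected for gene length and library size). A gene entered if it carried a RefSeq LOC identifier, averaged at least 2 FPKM over the 6 libraries, was not among the 100 loci with the highest mean, and had values in 19G and 20G that overlapped in range. The 14644 genes that met these conditions were ranked by log2(FPKM + 1) in 19G replicate 1 minus the larger value of 19G replicates 2 and 3, and the 200 with the largest margin were kept. They are 200 of 57126 RefSeq genes and of 70842 loci in all. The excess of 19G replicate 1 over its line is therefore how the genes were selected, not a result, and it is given without a test.

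In line 19G the angle of the petiole is large and the leaf lies flat, whereas in line 20G the angle is small and the leaf form compact. Each line was represented by 3 petiole libraries of bulk tissue, and no treatment or plant age is given in the labels. Whether each library stands for a plant of its own is not stated, and the spread within a line may be technical. Each leaf form is represented by a single line, and the 2 cannot be told apart.

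The petiole is the stalk that carries the leaf blade, and its angle to the stem is known to depend on unequal cell growth on its upper and lower sides. It is a mixed organ, with epidermis, ground tissue rich in collenchyma, and vascular bundles, and the makeup of a petiole sample depends on which stretch of the stalk is taken and at what stage. In bulk tissue, fewer cells of a type and less RNA per cell cannot be told apart. All 200 identifiers matched the RefSeq gene table of the assembly HanXRQr2.0-SUNRISE, which gives no product names, so no function is assigned to any gene here and no cell type marker was checked.

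The 6 libraries summed to between 638235 and 701884 FPKM, and sequencing depth is unknown. Over the 28292 loci tested between the lines, which are not independent replicates, 19G replicate 1 correlated at r = 0.91 and 0.89 with the other libraries of its line and at 0.77 to 0.80 with those of 20G, so it grouped with its label. It nevertheless stood apart, since 19G replicates 2 and 3 correlated at 0.97 and the 20G libraries at 0.95 to 0.97 among themselves. Over the 14644 genes of the ranking, which were required to overlap between lines, it correlated at 0.84 and 0.80 with its own line. With 20G replicates 1, 2 and 3 it correlated at 0.91, 0.88 and 0.88. The values with 20G were not particular to it, since 19G replicates 2 and 3 correlated with the 20G libraries at 0.88 to 0.92. Between 19G replicates 2 and 3 the correlation over the 14644 genes was 0.96. Being at least 2-fold above both other libraries of the line, on the log2(FPKM + 1) scale, applied to 5.19% of these genes in 19G replicate 1. The same held for 0.376% in 19G replicate 2, 1.73% in 19G replicate 3, 1.26% in 20G replicate 1, 1.46% in 20G replicate 2 and 0.539% in 20G replicate 3.

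The 200 genes took 3.15% of all FPKM in 19G replicate 1, against 0.416% and 0.352% in 19G replicates 2 and 3. In the 20G libraries they took 1.14%, 0.927% and 0.769%, between the extremes of 19G. Their median level was 31.5 FPKM in 19G replicate 1, 2.91 in replicate 2 and 1.81 in replicate 3 of that line. In 20G the median was 9.87 FPKM in replicate 1, 6.96 in replicate 2 and 6.85 in replicate 3. The median of the 14644 genes, by contrast, was lowest in 19G replicate 1, at 8.58 FPKM, and between 9.65 and 11.0 in the other libraries. The margin that ranked the genes ran from 2.09 to 6.81 on the log2 scale, with a median of 2.72, where the 14644 genes had a median of -0.42.

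**Figure D1:**
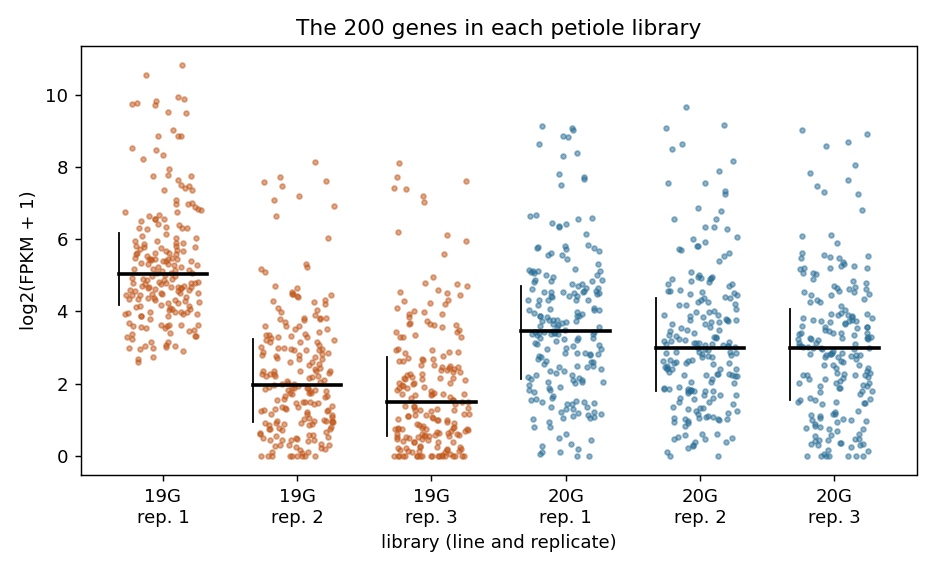
Level of each of the 200 genes in each library, on the log2(FPKM + 1) scale, with one point per gene, orange for 19G and blue for 20G. The thick line is the median and the thin line runs from the lower to the upper quartile. The genes are highest in 19G replicate 1 by selection, and the 20G libraries, with medians of 9.87, 6.96 and 6.85 FPKM, lie above 19G replicates 2 and 3, with medians of 2.91 and 1.81 FPKM.

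Within 19G the 200 genes are thus high in a single library by selection, while the place of the 20G libraries varied between genes. In 111 of the 200 genes all 3 libraries of 20G lay above both 19G replicate 2 and 19G replicate 3, and in the remaining 89 the 20G values overlapped with those 2 libraries. Among all 14644 genes, 9.04% had every 20G library above 19G replicates 2 and 3. The ranking favoured genes that were low in those 2 libraries, so nothing is read from the difference. No gene could have all of 20G below them, because the overlap condition excludes it. On the log2(FPKM + 1) scale, the excess of every 20G library reached 2-fold in 52 genes. In 83 genes no 20G library was 2-fold above the larger of 19G replicates 2 and 3 on that scale. In those 83 genes 19G replicate 1 was thus the only library at least 2-fold above that larger value. The shares of the 14644 genes at these 2-fold thresholds are not given here. The ranking bears on the counts of 52 and 83 too, so nothing is read from them.

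In 171 of the 200 genes 19G replicate 1 lay above every 20G library, and in the other 29 it lay within the range of 20G. It lay above every 20G library in 15.1% of the 14644 genes, a figure that the ranking again bears on directly. At least 2-fold above the highest 20G library, on the log2(FPKM + 1) scale, were 134 genes. The share of the 14644 genes at that threshold is not given here, and the ranking bears on this count too. The genes therefore form a graded set, from those seen in 19G replicate 1 and hardly elsewhere to those whose level in 19G replicate 1 is at or below the mean of 20G. The difference of 19G replicate 1 from that mean ran from -1.02 to 7.88 on the log2 scale, with a median of 2.12.

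**Figure D2:**
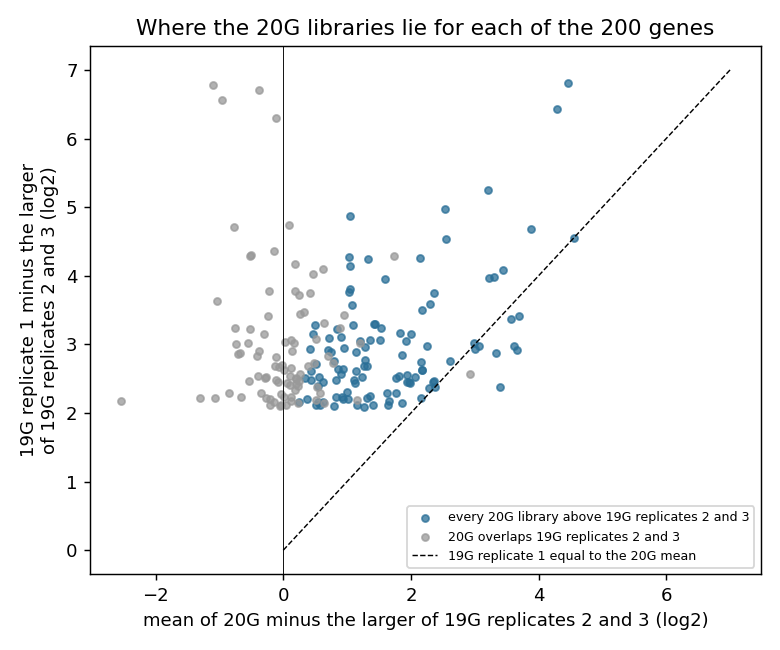
For each of the 200 genes, the mean of the 3 20G libraries (horizontal axis) and 19G replicate 1 (vertical axis), each minus the larger of 19G replicates 2 and 3 on the log2(FPKM + 1) scale. Blue points are the 111 genes with every 20G library above both 19G libraries, grey points the 89 genes where they overlap, and points on or below the dashed line have 20G at or above 19G replicate 1.

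The 12 genes of the widest margin show both ends of this set. LOC110916020, the first in rank, reached 851 FPKM in 19G replicate 1 but only 6.61 and 3.81 in 19G replicates 2 and 3, against 223, 93.5 and 225 in the 20G libraries. LOC110868035 stood at 368, 3.27 and 0.520 FPKM in 19G and at 94.8, 151 and 38.7 in 20G. In both genes the 20G libraries lay between 19G replicate 1 and the rest of 19G, with no overlap with either.

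LOC110899839 was similar at a lower level, with 52.9, 0.323 and 0.414 FPKM in 19G and 27.6, 4.34 and 13.5 in 20G. LOC110919407 stood at 48.2, 0.221 and 0.559 FPKM in 19G and at 9.94, 8.60 and 5.97 in 20G. LOC110895164 stood at 462, 11.2 and 14.9 FPKM in 19G and at 22.3, 59.6 and 23.7 in 20G. Here too each 20G library exceeded 19G replicates 2 and 3. LOC110877556 differed from these in that 19G replicate 1, at 28.4 FPKM, fell within the 20G values of 32.8, 18.8 and 6.20, while 19G replicates 2 and 3 were at 0.137 and 0.144.

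In the other 6 of these 12 genes the signal was nearly confined to 19G replicate 1. LOC110871231 stood at 298 FPKM there, at 1.73 and 0.305 in 19G replicates 2 and 3, and at 0, 0.507 and 0.375 in 20G. LOC110896250 stood at 723 FPKM there and at 5.96 and 5.43 in the rest of 19G, against 6.06, 3.36 and 3.94 in 20G. LOC110930312 stood at 245 FPKM there, at 0.109 and 1.61 in the rest of 19G, and at 1.08, 0.158 and 0 in 20G. The 5 other libraries overlapped between the lines in all 3 genes, and 19G replicate 1 was over 100 times the highest of them.

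LOC110900003 was listed at 0 in every 20G library and in 19G replicate 3, at 0.0822 FPKM in 19G replicate 2 and at 84.2 in 19G replicate 1. LOC110936864 reached 35.2 FPKM in 19G replicate 1, with 0.361 and 0 in the rest of 19G and at 0.0401, 0.991 and 0.478 in 20G. LOC110933823 reached 94.1 FPKM in 19G replicate 1, with 2.61 and 0.679 in the rest of 19G and at 1.72, 1.72 and 0.262 in 20G. Among all 200 genes, 5 were under 1 FPKM in each of the 5 libraries other than 19G replicate 1. For such genes a single library carries the whole mean, so whether another petiole sample of 19G would show them is not known from these data.

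**Figure D3:**
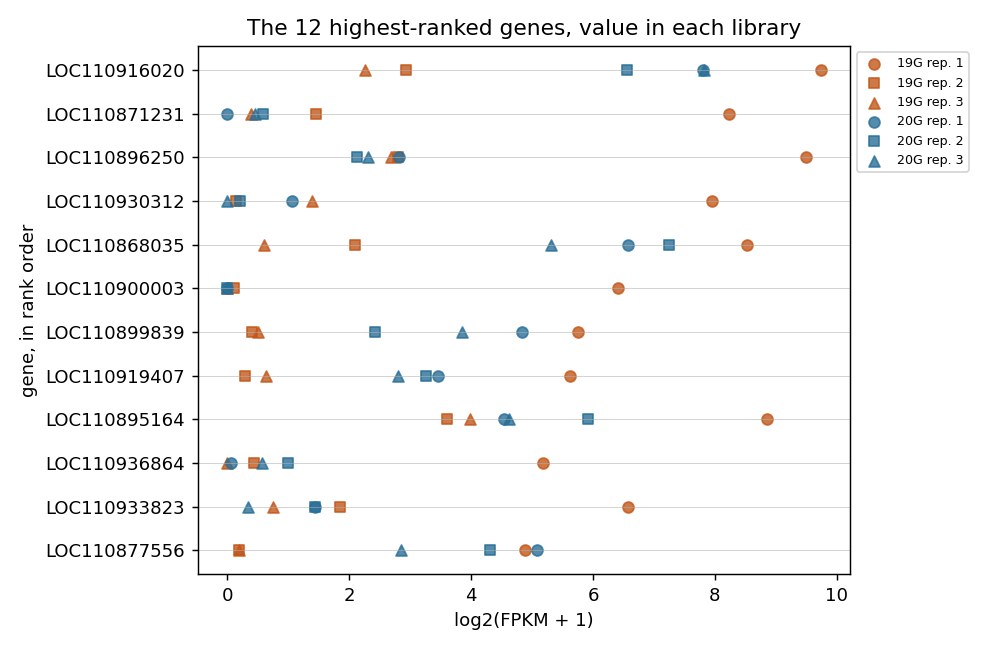
The 12 genes of the widest margin, top to bottom in rank order, with the value in each library on the log2(FPKM + 1) scale. Colour gives the line and symbol shape the replicate number. In 6 genes the 20G libraries lie apart from 19G replicates 2 and 3, and in the other 6 only 19G replicate 1 is high.

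The 8 genes of the highest mean level all had signal in every library. LOC110937282 had the highest mean, with 1802, 211 and 211 FPKM in 19G and 396, 397 and 176 in 20G. LOC110911705 stood at 1489, 278 and 276 FPKM in 19G and at 316, 539 and 158 in 20G. LOC110873654 stood at 979, 176 and 170.1 FPKM in 19G and at 209, 289 and 150.5 in 20G. In these 3 genes 20G replicates 1 and 2 lay above 19G replicates 2 and 3, 20G replicate 3 lay below them, and 19G replicate 1 exceeded every other library.

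In the other 5 of these 8 genes every 20G library lay above 19G replicates 2 and 3. LOC110865288 stood at 881, 192 and 195 FPKM in 19G and at 558, 814 and 524 in 20G. LOC110868858 stood at 734, 145 and 168 FPKM in 19G and at 541, 364 and 264 in 20G. LOC110864381 stood at 465, 19.0 and 11.9 FPKM in 19G and at 467, 576 and 380.0 in 20G. The last gene ranked 13 by margin, and its level in 19G replicate 1 was that of 20G, over 20 times that of the other 19G libraries.

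LOC110899834 stood at 939.6, 136 and 145 FPKM in 19G and at 521, 186 and 479 in 20G. Its neighbour LOC110899835 stood at 835, 121 and 129 FPKM in 19G and at 452, 160.1 and 415 in 20G. The values of this pair ran nearly in parallel over the 6 libraries, with 20G replicate 2 low in both. Reads shared between near-identical or overlapping genes could not be checked, so the values of such pairs are uncertain.

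The margin fell off gently where the list ends. The 5 genes just inside were LOC110935881, LOC110923139, LOC110918046, LOC110913422 and LOC110915581, with margins of 2.11, 2.11, 2.10, 2.10 and 2.09. Just outside were LOC110911707, LOC110877950, LOC110890849, LOC110909051 and LOC110910645, each with a margin of 2.07. LOC110915581, inside, stood at 15.8, 2.95 and 2.83 FPKM in 19G and at 12.5, 5.70 and 8.48 in 20G. LOC110911707, outside, stood at 462, 109 and 88.7 FPKM in 19G and at 194, 175 and 75.9 in 20G. The genes on either side of the boundary differ little in the quantity that separates them.

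How the 20G libraries differ among themselves entered the selection directly only through the overlap and the mean level. The genes were, however, picked for a wide gap within 19G. Whether genes with such a gap also differ more within 20G was not tested, so the shares below are not apart from the selection. The 200 genes were most often highest in 20G replicate 1, in 114 genes (57.0%), where 38.9% of the 14644 genes were. They were highest in 20G replicate 2 in 71 genes (35.5%, against 32.4%) and in 20G replicate 3 in only 14 genes (7.0%, against 28.8%). The lowest 20G library was replicate 3 in 116 genes (58.0%, against 26.3%), replicate 2 in 62 (31.0%, against 45.9%) and replicate 1 in 21 (10.5%, against 27.8%). In these genes replicate 1 was thus more often the highest, and replicate 3 more often the lowest, than among the 14644. A single library against the rest of its line allows no test, and the difference in shares was not tested.

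**Figure D4:**
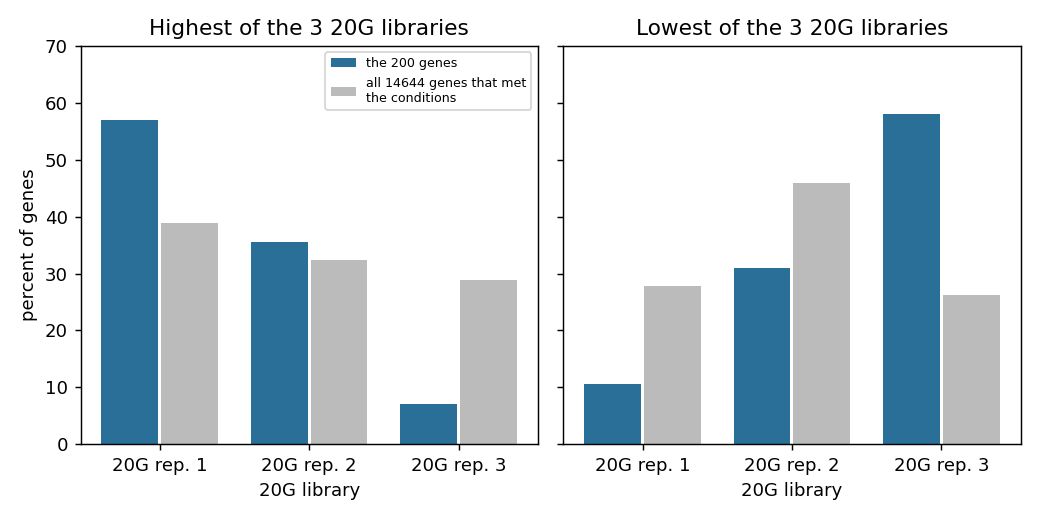
Percent of genes that were highest (left) or lowest (right) in each 20G library, for the 200 genes (blue) and for all genes that met the conditions of the ranking (grey). In the 200 genes replicate 1 was highest in 57.0% and replicate 3 lowest in 58.0%, against 38.9% and 26.3% of all genes.

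The median of 20G replicate 1 minus the mean of 20G replicates 2 and 3 was 0.45 on the log2 scale over the 200 genes and 0.06 over the 14644. The corresponding medians were 0.05 and -0.08 for 20G replicate 2, and -0.45 and 0.02 for 20G replicate 3. In 4 classes of 50 genes of rising mean level, 20G replicate 1 was highest in 27, 30, 33 and 24 genes and 20G replicate 2 in 19, 16, 12 and 24, so that the 2 were level in the class of the highest means. Replicate 1 was highest in 64 of the 111 genes with 20G above 19G replicates 2 and 3 and in 50 of the 89 others.

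Differences of at least 2-fold within 20G, on the log2(FPKM + 1) scale, went both ways. In 20G replicate 1, 22 genes (11.0%) were at least 2-fold above both other libraries, against 1.26% of the 14644 genes, and 1 gene was as far below, against 0.813%. In 20G replicate 2, 18 genes were above (9.0%, against 1.46%) and 23 below (11.5%, against 2.0%). In 20G replicate 3, 0 genes were above, against 0.539%, and 14 below (7.0%, against 0.396%). The ranking was also made for each 20G library over the other 2, and a list of its 200 highest holds 1.37% of the 14644 genes. Of the 200 genes, 23 (11.5%) were in the list for replicate 1, 17 (8.5%) in that for replicate 2 and 1 (0.5%) in that for replicate 3. The 200 genes were picked for a wide gap within 19G, so nothing is read from these shares against those of the 14644.

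The 6 genes with the largest excess of 20G replicate 1 were LOC110869901, LOC110942074, LOC110891507, LOC110921576, LOC110866036 and LOC110886132, with excesses of 2.18 to 2.88. LOC110869901 stood at 79.9, 3.10 and 28.5 FPKM in 20G and at 32.2, 0.963 and 0.679 in 19G. LOC110942074 stood at 31.3, 0.392 and 26.8 FPKM in 20G and at 7.40, 0.414 and 0 in 19G. In these genes 20G replicate 2 was the lowest 20G library, and in LOC110942074 it was as low as 19G replicate 2.

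LOC110891507 stood at 52.3, 7.28 and 13.0 FPKM in 20G and at 29.3, 2.87 and 0.499 in 19G. LOC110866036 stood at 39.1, 6.35 and 9.52 FPKM in 20G and at 20.8, 1.77 and 2.26 in 19G. LOC110886132 stood at 182, 26.1 and 58.6 FPKM in 20G and at 217, 25.0 and 18.5 in 19G. In each of the 3 genes 20G replicate 3 came next after replicate 1 within 20G. LOC110921576 stood at 20.3, 1.02 and 9.62 FPKM in 20G and at 26.8, 4.34 and 0 in 19G, so that its lines overlapped in the low libraries.

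The 6 genes with the largest shortfall of 20G replicate 1 were LOC110896542, LOC110916518, LOC110877753, LOC110914594, LOC110918227 and LOC110916399, at -1.39 to -0.88. LOC110896542 stood at 7.52, 31.1 and 14.6 FPKM in 20G and at 92.7, 12.6 and 16.1 in 19G. LOC110877753 stood at 4.12, 29.2 and 2.40 FPKM in 20G and at 181, 7.89 and 2.23 in 19G. LOC110916399 stood at 9.64, 26.1 and 13.2 FPKM in 20G and at 215, 21.4 and 22.1 in 19G. Here 20G replicate 2 was the highest 20G library, and in all 3 genes the 20G values overlapped with 19G replicates 2 and 3.

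LOC110916518 stood at 1.29, 6.59 and 3.71 FPKM in 20G and at 5.08, 0 and 0.110 in 19G. LOC110914594 stood at 2.54, 7.38 and 4.72 FPKM in 20G and at 26.6, 5.38 and 2.69 in 19G. LOC110918227 stood at 2.91, 7.78 and 5.17 FPKM in 20G and at 26.2, 1.80 and 0.371 in 19G. The order of the 20G libraries was replicate 2, then 3, then 1 in all 3 genes.

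The ranking took the larger of 19G replicates 2 and 3, whichever it was. It thus treated the 2 alike, though the values of both bore on the selection. Replicate 2 lay above replicate 3 in 137 of the 200 genes (68.5%), against 45.9% of the 14644 genes. The difference in shares was not tested, and nothing is read from it. At 0 were 9 of the 200 genes in replicate 2 and 19 in replicate 3. Under 1 FPKM in both replicates were 51 genes.

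Whether the lines differ in these genes was asked with limma on log2(FPKM + 1) over all 28292 loci with at least 1 FPKM in 3 or more libraries. A locus was called at a Benjamini-Hochberg adjusted p under 0.05 and a difference of at least 1 in size, 20G minus 19G. Of the 200 genes, 186 passed the filter and 0 were called, where 17.1% of all tested loci were. The selection required overlap between lines, so this count was set in part by the rule. At an unadjusted p under 0.05 by limma were 9 of the 186 genes (4.84%), a share on which the overlap condition also bears. The share of all tested loci at that p is not given here, but it is at least the 17.1% that were called. The smallest adjusted p among the 186 genes by limma was 0.068. The differences ran from -2.74 to 3.25, with a median of 0.02, equal to the median of all tested loci, and 91 of them were below 0. The other 14 genes reached 1 FPKM in fewer than 3 libraries.

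Without 19G replicate 1 the same fit called 64 of the 186 genes (34.4%) as higher in 20G, where 9.34% of all tested loci were called higher, and 0 as lower, where 10.8% were. All 64 were among the 111 genes with every 20G library above 19G replicates 2 and 3. The median difference was then 1.01 over the 186 genes and -0.07 over all tested loci. The genes had been picked as low in the 2 libraries that remain of 19G, so the count is a description. It includes LOC110916020, LOC110868035, LOC110899839, LOC110919407, LOC110877556 and LOC110864381, whose differences without that library were 4.80, 5.03, 3.25, 2.71, 3.89 and 4.87.

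Position was not used in the selection. In the order of the 20485 RefSeq genes with a mean of at least 2 FPKM that the RefSeq table places on a chromosome, 28 of the 200 genes (14.0%) stood next to another of them. They formed 12 runs, of which 10 were pairs, 1 held 3 genes and 1 held 5. The share expected without any grouping was not computed.

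The run of 5 comprised LOC110868327, LOC110868323, LOC110868322, LOC110868321 and LOC110868318. LOC110868322 stood at 25.1, 1.30 and 0.765 FPKM in 19G and at 13.6, 8.07 and 7.53 in 20G. LOC110868327 stood at 16.6, 0.993 and 0.440 FPKM in 19G and at 9.42, 5.96 and 6.02 in 20G. LOC110868321 stood at 23.9, 2.36 and 3.33 FPKM in 19G and at 18.8, 22.8 and 11.7 in 20G. In these 3 genes 19G replicate 1 was highest, the 20G libraries followed, and 19G replicates 2 and 3 were lowest with no overlap.

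LOC110868323 stood at 11.0, 1.06 and 1.16 FPKM in 19G and at 3.75, 3.06 and 1.95 in 20G. LOC110868318 stood at 9.88, 0.255 and 0.311 FPKM in 19G and at 2.69, 2.47 and 1.12 in 20G. In all 5 genes of the run the 20G libraries therefore lay between 19G replicate 1 and the other 19G libraries, though their order within 20G varied. Similarity of sequence between them was not analysed here.

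**Figure D5:**
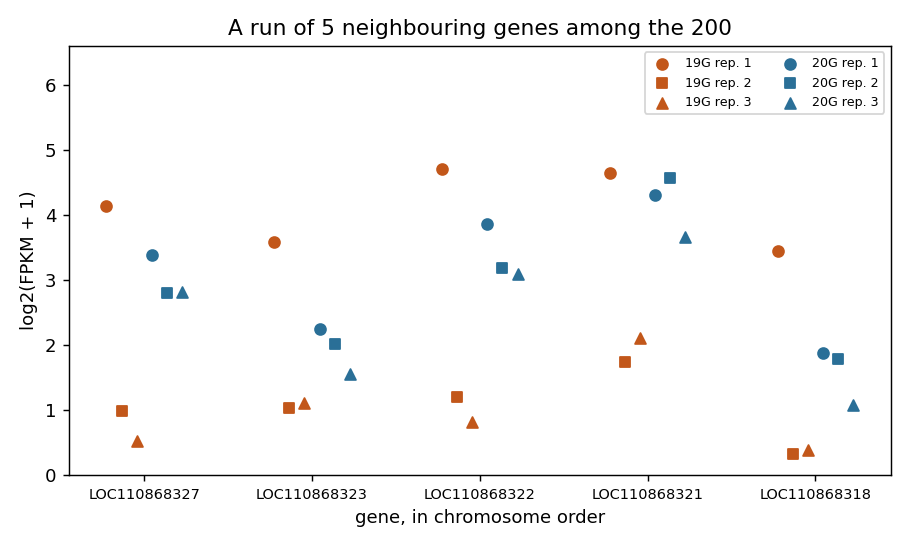
The 5 neighbouring genes of the longest run, in chromosome order, with the value in each library on the log2(FPKM + 1) scale. Colour gives the line and symbol shape the replicate number, and in each gene the 20G libraries lie between 19G replicate 1 and the other 19G libraries.

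The run of 3 comprised LOC110918684, LOC110916009 and LOC110917076. LOC110916009 stood at 107, 9.04 and 1.44 FPKM in 19G and at 33.7, 7.98 and 22.2 in 20G. LOC110918684 stood at 18.9, 0.470 and 0.0976 FPKM in 19G and at 3.27, 2.43 and 0.847 in 20G. LOC110917076 stood at 30.9, 3.51 and 3.98 FPKM in 19G and at 3.42, 3.83 and 3.40 in 20G. Unlike the run of 5, the neighbours here did not share a pattern in 20G, since the last gene was level over the 5 libraries other than 19G replicate 1.

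Among the pairs, LOC110889924 and LOC110889925 went different ways in 20G. LOC110889924 stood at 163, 35.4 and 6.23 FPKM in 19G and at 4.61, 11.5 and 2.43 in 20G. LOC110889925 stood at 9.02, 0.928 and 0.0284 FPKM in 19G and at 16.1, 50.6 and 8.48 in 20G. Both were highest in replicate 2 within 20G, but the former was lower in 20G than in 19G replicate 2 and the latter far higher.

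LOC110918535 stood at 23.6, 2.98 and 2.25 FPKM in 19G and at 20.3, 12.6 and 18.8 in 20G, while its neighbour LOC110918536 stood at 28.5, 2.13 and 0.184 in 19G and at 1.98, 0.210 and 0.764 in 20G. LOC110936865, next to LOC110936864, stood at 21.6, 0.345 and 0.906 FPKM in 19G and at 1.78, 5.14 and 2.78 in 20G. LOC110891210 stood at 22.4, 0.216 and 0 FPKM in 19G and at 2.77, 1.96 and 0.360 in 20G. Its neighbour LOC110891211 stood at 14.6, 0 and 0 FPKM in 19G and at 4.49, 1.13 and 1.38 in 20G. In the last pair both genes were highest in replicate 1 within 20G, and in 19G they were so by selection.

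LOC110921755 stood at 26.4, 1.78 and 2.28 FPKM in 19G and at 9.75, 8.73 and 7.02 in 20G. Its neighbour LOC110922439 stood at 135, 17.5 and 19.0 FPKM in 19G and at 42.8, 55.1 and 45.4 in 20G. LOC110885284 stood at 16.0, 1.40 and 0.420 FPKM in 19G and at 1.24, 0.891 and 0.391 in 20G. The former pair had every 20G library above 19G replicates 2 and 3, and LOC110885284 had none above 19G replicate 2. Its neighbour LOC110885287 stood at 26.2, 3.80 and 3.73 FPKM in 19G and at 6.24, 3.72 and 3.93 in 20G.

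Some neighbours had nearly the same values. In 4 pairs of the 200 genes no library differed by more than 0.25 on the log2(FPKM + 1) scale, and 3 of these pairs were neighbours in the order above. LOC110909148 stood at 38.2, 0 and 0.981 FPKM in 19G and at 0.0727, 1.52 and 0 in 20G. LOC110929765, next to it in that order, stood at 37.8, 0 and 0.980 FPKM in 19G and at 0.0727, 1.47 and 0 in 20G. The pair differed by at most 0.03 on that scale.

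LOC110889929 stood at 54.6, 9.24 and 4.38 FPKM in 19G and at 9.64, 13.6 and 6.91 in 20G. Its neighbour LOC110889902 stood at 54.7, 9.40 and 4.50 FPKM in 19G and at 11.3, 15.1 and 7.72 in 20G. LOC110899834 and LOC110899835, given above, are the third of these neighbouring pairs. They alone of these pairs were also adjacent in the order of all protein-coding RefSeq genes. The genes of the fourth pair, LOC110942409 and LOC110901371, were not neighbours.

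LOC110942409 stood at 15.3, 0 and 0 FPKM in 19G and at 0.137, 1.36 and 0 in 20G. LOC110901371 stood at 13.7, 0 and 0.0982 FPKM in 19G and at 0.248, 1.52 and 0 in 20G. LOC110898159 and LOC110898160, also neighbours, showed 18.4 and 18.7 FPKM in 19G replicate 1, then 1.40 and 1.22 in replicate 2, and both at 0 in replicate 3. In 20G they stood at 1.71 and 1.81 FPKM in replicate 1, at 0.310 and 0.387 in replicate 2, and at 0.249 and 0.515 in replicate 3. Whether such a pair holds 1 signal or 2 was not tested.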

How the data were processed

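The authors deposited 1 FPKM value for every locus in each library, a unit stated in the sample descriptions. Libraries were made from RNA captured on oligo(dT) beads, per the labels' protocols. Alignment, assembly, genome build and filtering are not given in the sources used. Groups and replicate numbers came from the sample titles. Because no build is named, the RefSeq table served only for symbols and gene order. That order came from its chromosomes and start positions, and no coordinates are given.

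The members and lists were chosen with earlier results of these data known. The scale throughout was log2(FPKM + 1), on which the change of low genes is understated. For the line comparison limma 3.58.1 (R 4.3.3) was fitted over all 28292 tested loci with a trended prior variance, all 6 libraries and no covariates, two-sided. The fit was checked on simulated data. Other steps used Python 3.11.15. FPKM carry no depth, so counting error is not given, and a gene without signal is listed at 0.

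Genes named are the 12 of the widest margin, the 8 of the highest mean, the 5 on either side of the boundary, the 6 with the largest excess and the 6 with the largest shortfall of 20G replicate 1, and the members of runs of neighbours. The nearly equal pair that is not a run, the counts by position of 20G and the order of 19G replicates 2 and 3 were chosen after the values were seen. Alternatives covered the pseudocount, filters, scaling, the trend, a replicate block and each library left out. Gene lists by product name, peptide signatures, protein similarity and promoter motifs were planned and are not analysed here, since the table used holds no products or sequences.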

Additional observations from a re-analysis of the deposited data

How the results depend on the processing

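Counts of called loci over all tests stayed within 1.5 times 4849 except with a mean of at least 5 FPKM, which tests fewer loci and called 1860. Of the 200 genes, 0 were called under each change of pseudocount, filter, scaling or trend. With each library left out the count ran from 0 to 64: it was 64 without 19G replicate 1, 1 without 19G replicate 3, 1 without 20G replicate 2 and 0 without any other. With the replicate number as a block (replicate block) 12 were called, 11 of them higher in 20G, and 5126 loci in all. The labels do not say that the numbers pair the libraries. Deviations from the line means correlated at 0.24, -0.01 and 0.13 for replicates 1, 2 and 3, and not every library correlated best with its own number.

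The ranking kept 77.0% to 94.0% of the 200 genes under the 6 alternatives that follow, and 99.0% with the 100 most abundant taken among RefSeq genes only. The median margin of 2.72 became 3.16 with a pseudocount of 0.1, 2.05 with 5, 2.51 with a mean of at least 5 FPKM, 3.02 with median-of-ratios scaling, 2.97 against the mean of 19G replicates 2 and 3, and 2.86 without the overlap condition. The excess of 20G replicate 1 became 0.58 with a pseudocount of 0.1. That library was highest in 108 to 114 genes under the other pseudocount and scalings, in 76 of the 129 genes with a 20G mean of at least 5 FPKM, and in 113 of 196 with nearly equal pairs counted once. The genes with every 20G library above 19G replicates 2 and 3 numbered 52 when 2-fold was asked and 120 after scaling. Neighbours numbered 20 in the order of all protein-coding genes, 22 without nearly equal pairs and 50 within 5 steps. The alternatives that gave 99.0%, 76, 113, 52, 120 and 22 were chosen after seeing the data. Depth is unknown, so its limit on low genes cannot be stated.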

Other observations

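New loci assembled by the authors, which the ranking leaves out, seldom reached its margin. Of 1756 new loci that met the other conditions, 6 (0.342%) had a margin of at least 2.09, against 1.37% of RefSeq genes, a share that the selection sets. Their medians were 14.0, 0.887 and 0.383 FPKM in 19G and 5.89, 3.06 and 3.06 in 20G. In all 6 new loci 19G replicate 1 lay above every 20G library, and 20G replicate 1 was the highest of the 20G libraries. In 4 of the 6 every 20G library lay above 19G replicates 2 and 3. The new locus of the widest margin, 3.11, stood at 16.5, 0.705 and 1.04 FPKM in 19G and at 3.92, 3.81 and 2.98 in 20G.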
